A study of Pan troglodytes with 8 samples.

Results

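EOMES, also called TBR2, encodes a T-box transcription factor that marks the intermediate progenitors of the developing neocortex. Intermediate progenitors arise from radial glia, divide away from the ventricular surface and give rise to excitatory neurons. In mouse, loss of Eomes in the cortex depletes these progenitors, and in human, a homozygous translocation that silences EOMES was found with microcephaly. Chromatin that a transposase can enter marks promoters and enhancers in use or poised for use, but it does not measure transcription or show which gene a distal region acts on.

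The EOMES locus was taken as each region of the deposited count table whose closest gene was EOMES, together with each region whose human hg38 midpoint lay in an 800 kb window of chromosome 3 around the gene. This gave 69 of 218080 regions, of which 5 had EOMES as the closest gene. All 5 lay inside the window. A chimpanzee identifier and counts were present for 67 regions, and the other 2 had no chimpanzee identifier and 0 counts. Distances are given in kb from the EOMES start to the middle of a region on hg38, and coordinates are those of the chimpanzee build panTro6, counted from 1. EOMES is read toward lower coordinates, so regions at higher coordinates are upstream, and 30 members lay upstream, 36 downstream and 1 at the start.

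Bulk ATAC-seq had been run on 4 populations sorted by flow cytometry from cerebral organoids of 1 chimpanzee induced pluripotent stem cell line, SandraA, at week 8 of culture ± 3 days, with 9000 cells seeded per well. No population carried a treatment or a genetic change, according to the labels. The populations follow the lineage from stem cell to neuron. Radial glia were sorted as apical (aRG) and basal (bRG) cells, and the others were basal intermediate progenitors (bIP) and BCL11B+ neurons (N). Each population had 2 libraries, numbered 1 and 2, with nothing in the labels on whether they were grown apart. The p-values therefore measure only the spread between these samples, which may be technical. The 8 libraries held between 24913928 and 34845193 counts. Values below are in CPM, the count of a region relative to its library's total, with totals scaled by TMM, the trimmed mean of M-values. In a sorted bulk sample, fewer cells of a kind with an open region and a smaller opening in each cell cannot be told apart.

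The sort labels were checked in part against gene loci, each the summed count of regions within 50 kb of a gene. Of 5 basal radial glia markers, 0 were called between bRG and aRG, beside 0.0% of all loci, so they did not check the bRG label. In N against bRG, 1 of the 5 was higher, LIFR, and 2 were lower, HOPX and TNC, beside 25.2% and 26.3% of all loci. The LIFR locus, which held 1 region, averaged 3.18 ± 0.612 CPM in bRG and 22.2 ± 7.88 CPM in N (SD, n = 2 each). All 7 measured radial glia markers were lower in bIP than in aRG and lower in N than in aRG, and of 6 neuron markers 4 were higher in N than in aRG and 1, MAP2, was lower (-0.36 ± 0.12, edgeR adjusted p = 0.033). Over all loci, 25.4% were higher and 27.5% lower in N than in aRG. In bIP over aRG, 5 neuron markers were higher, beside 16.6% of all loci. In N against bIP, 1 was higher and 2 lower (12.1% and 17.0% of all loci), and 3 did not pass. The neuron markers thus did not set N above bIP. BCL11B, the marker that names the neurons, averaged 123 ± 12.6 CPM in N and 185 ± 8.85 CPM in bIP (SD, n = 2 each), which was lower in N (log2 fold change -0.58 ± 0.10 SE, edgeR adjusted p = 0.0042). The 2 microglia markers, AIF1 and PTPRC, had no measured locus. TBXT, a T-box gene of mesendoderm, where EOMES is also used, averaged 9.02 ± 0.545 CPM in bIP and 10.6 ± 0.335 CPM in aRG (SD, n = 2 each). The other measured mesendoderm markers, MIXL1 and SOX17, averaged 17.1 and 15.7 CPM in bIP. In N against aRG, 0 of 5 interneuron markers were higher and 3 lower, and of 3 mesenchyme markers 0 were higher and 1 lower. In bIP against aRG, 1 interneuron marker, GAD1, was higher (0.52 ± 0.10, edgeR adjusted p = 0.0052) and 2 were lower. GAD1 was also the 1 interneuron marker higher in N than in bRG (0.39 ± 0.10, edgeR adjusted p = 0.012), where 3 were lower.

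The EOMES start itself was open in every library and most open in bIP. The region over the start, chr3:27890461-27894611, was the widest member at 4151 bp. Its CPM was 40.1 and 38.5 in aRG, 29.9 and 34.9 in bRG, 61.2 and 59.1 in bIP, and 37.4 and 25.7 in N. Both bIP libraries lay above all 6 others, and the aRG, bRG and N values ranged from 25.7 to 40.1 CPM. The region rose in bIP against aRG by 0.61 ± 0.15 on the log2 scale (SE, edgeR quasi-likelihood test, Benjamini-Hochberg adjusted p = 0.0047; 0.99 with loess offsets) and against bRG by 0.89 ± 0.15 (adjusted p = 0.00048). It fell in N against bIP, with a log2 fold change of -0.93 ± 0.15 (adjusted p = 0.00038). N against aRG at the start was -0.32 ± 0.15 (adjusted p = 0.075) and depended on the settings. It was called with RLE scaling (relative log expression; -0.42, edgeR adjusted p = 0.024), without bIP library 2 (-0.49, 0.019) and without N library 1 (-0.64, 0.0016), and its sign turned with intensity-dependent loess offsets (0.24, adjusted p = 0.14). The promoter was thus also accessible in radial glia and in neurons.

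Summed over the 5 regions closest to EOMES, the gene locus showed the same order. The sum includes the start region, which averaged 40.9 CPM over the 8 libraries, while the next highest of the 5 averaged 7.86 CPM. The order is thus not a result separate from that of the start. CPM values of gene loci are relative to the counts in gene loci, a smaller total, and so are larger than those of the regions. Loci were also scaled apart from regions, so the same counts can give different log2 fold changes as a region and as a locus. The locus had 130 and 126 CPM in aRG, 104 and 126 CPM in bRG, 214 and 209 CPM in bIP, and 122 and 83.5 CPM in N. Only bIP stood clear of the other populations, and the 2 N libraries lay further apart than those of bIP. The locus rose in bIP against aRG (0.72 ± 0.16, adjusted p = 0.0097) and against bRG (0.88, adjusted p = 0.0044), and fell in N against bIP (-1.04 ± 0.16, adjusted p = 0.0026), all by edgeR. Without aRG library 1 or library 2 the rise over aRG had nearly the same size, 0.74 and 0.71, with edgeR adjusted p = 0.056 and 0.06. N against aRG was -0.31 (edgeR adjusted p = 0.14), and passed the test without N library 1, at -0.62 (adjusted p = 0.0044).

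The 4 other regions closest to EOMES lay upstream and differed in pattern. The region 24.4 kb upstream, chr3:27915868-27916995, was low in radial glia, with 0.744 and 1.18 CPM in aRG and 0.736 and 0.578 CPM in bRG. It had 3.02 and 4.72 CPM in bIP, and 1.80 and 1.37 CPM in N. It rose in bIP against aRG by 2.01 ± 0.37 (edgeR adjusted p = 0.00085) and was lower in N than in bIP by -1.27 ± 0.35 (adjusted p = 0.0096), on the log2 scale. The regions 6.27 and 7.58 kb upstream had overlapping values in radial glia and bIP. At 7.58 kb the values were 10.4 and 9.45 CPM in aRG, 7.47 and 8.74 CPM in bRG, 8.90 and 8.94 CPM in bIP, and 5.15 and 3.77 CPM in N. Both regions passed the test for a fall in N against bIP, with log2 fold changes of -1.51 at 6.27 kb (edgeR adjusted p = 0.0015) and -1.0 at 7.58 kb (adjusted p = 0.006). The region 10.7 kb upstream never exceeded 0.729 CPM and was called in no comparison of bIP or N with aRG or of N with bIP.

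**Figure D1:**
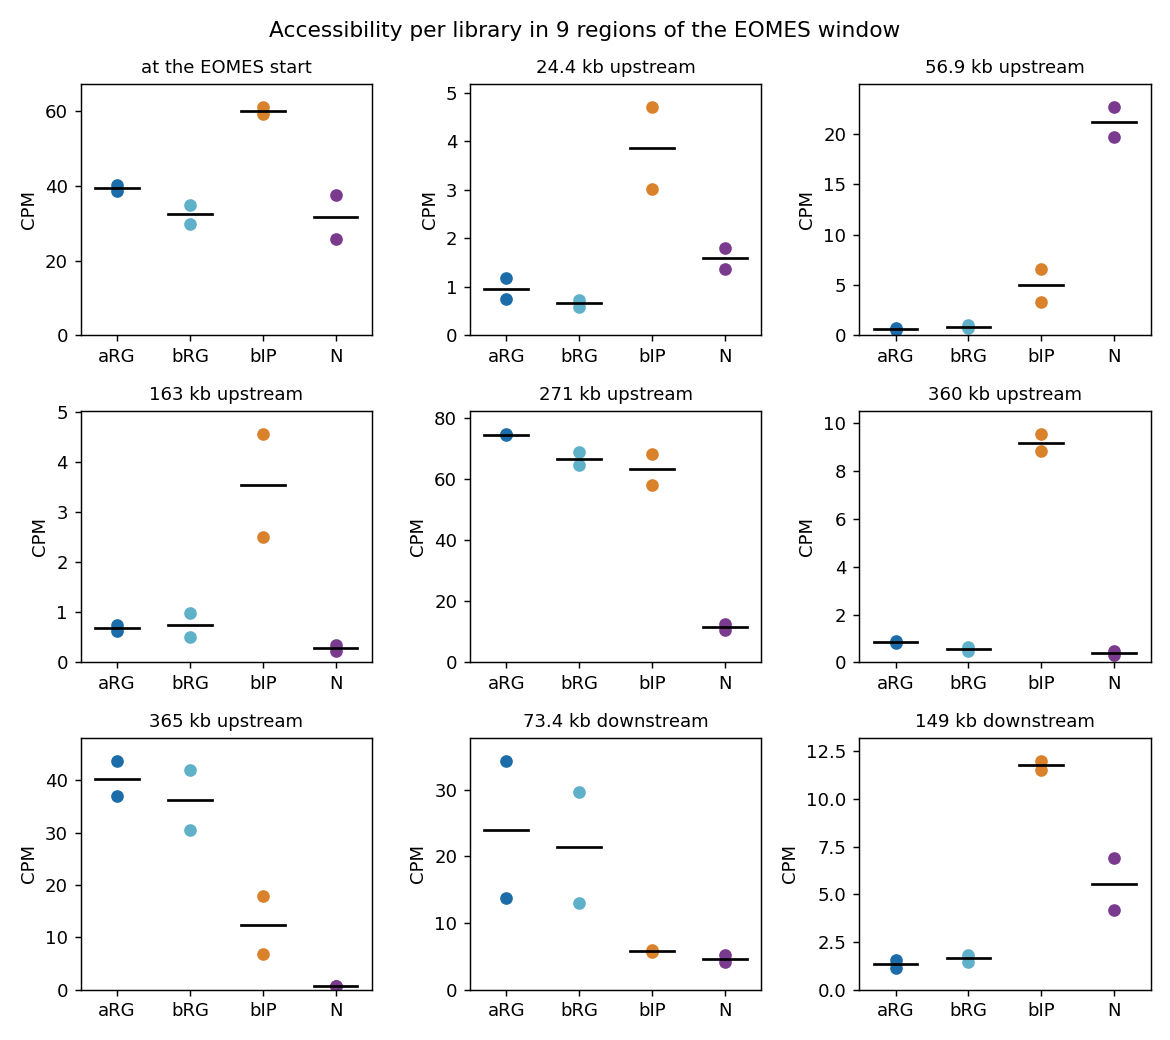
CPM (vertical axes, linear and starting at 0) of single regions of the EOMES locus in the 4 populations, with 1 point per library and a bar at the mean. The start region peaks in bIP, and the region 360 kb upstream is at most 0.901 CPM in every library outside bIP.

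Across the window, 31 of 63 tested members differed between bIP and aRG, 22 higher and 9 lower in bIP, beside a background of 47.2% of all 198227 regions tested. Members below the filter on low counts numbered 4, with no count above 11 in any library, and since a region open in 1 population only can pass through that population, the counts of calls are a description. Higher members were 22 of 63, beside a background of 24.5% called higher, and lower members 9, beside 22.6%. The median log2 fold change of the members was 0.46, against 0.05 over all regions. Against bRG, 24 members were higher and 10 lower in bIP (background 22.4% and 20.4%, 42.9% in all). That total of 34 was 21 without bRG library 1, and otherwise between 24 and 36 when 1 library was left out.

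From bIP to N the balance of the locus turned the other way. In N, 30 members were lower and 11 higher than in bIP, beside backgrounds of 22.6% lower and 25.0% higher (47.6% in all). The median log2 fold change was -0.81 for the members and -0.01 for all regions. N against aRG gave 28 lower and 18 higher members (background 31.7% and 37.2%, 69.0% in all), with a median of -0.79 against 0.13 over all regions. These calls were uneven along the window. Of the 17 tested members between 178 and 378 kb upstream, 12 were lower and 1 higher in N than in aRG. Of the remaining 46, 16 were lower and 17 higher. Set against bRG, 26 members were lower in N and 21 higher (background 30.4% and 37.5%, 67.9% in all). Comparisons that have a population in common are not independent of each other. In 24 of the 30 members lower in N than in bIP, N library 1 lay above N library 2, and in 3 of the 11 higher members it did. Without N library 2, 32 of the 41 calls in N against bIP were made, all among the 41, and without N library 1, 37 were.

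Basal and apical radial glia were not separated at the locus. Of 63 tested members, edgeR called 0 between bRG and aRG, beside 0.0% of all regions, and 1 member had an unadjusted p under 0.05. DESeq2 called 0 members and had 0 at an unadjusted p under 0.05. The log2 fold changes of bRG against aRG ran from -0.73 to 1.00, with a median of -0.10. The absence of calls does not show that bRG and aRG are alike here.

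**Figure D2:**
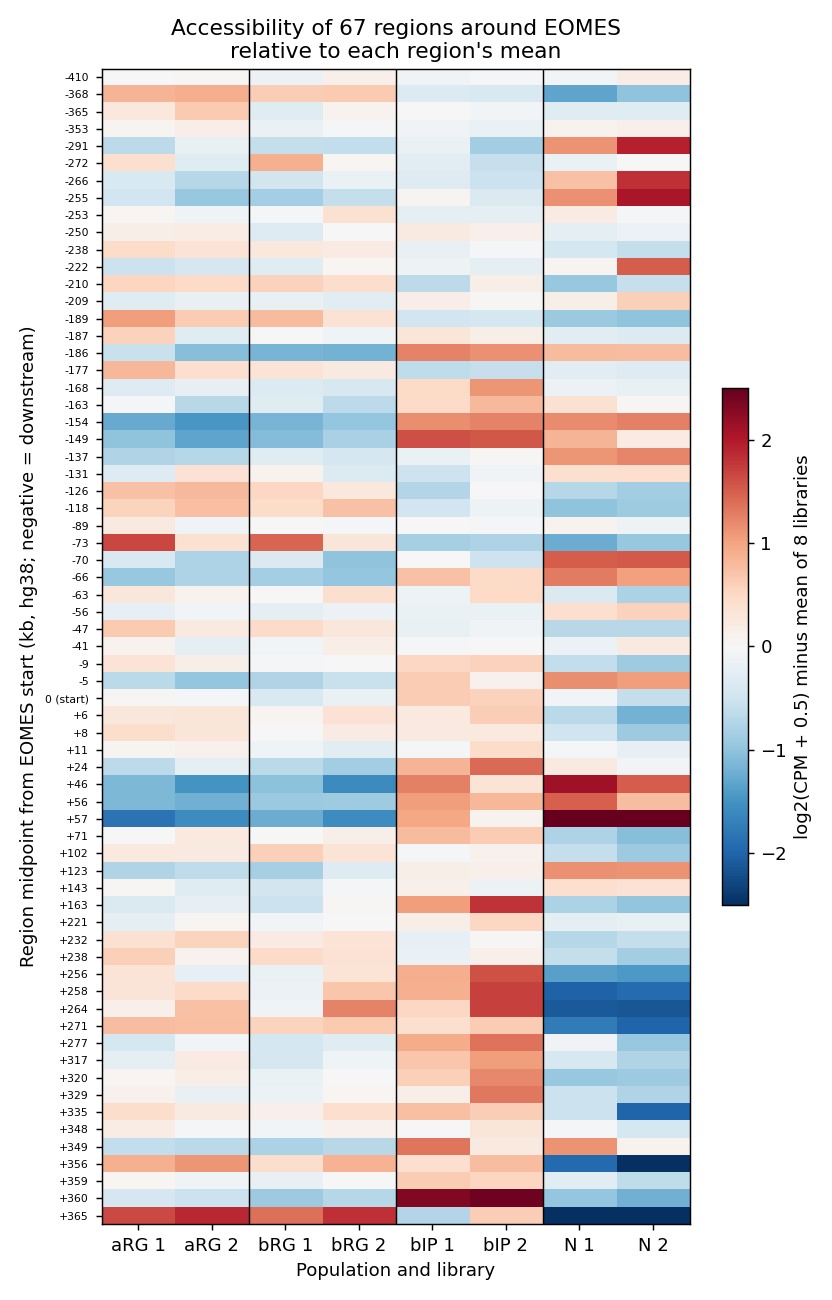
Accessibility of the 67 measured members (rows, ordered along the chromosome) in the 8 libraries (columns, aRG, bRG, bIP and N), coloured by log2 CPM relative to each region's mean over the libraries. Most of the far-upstream members, but not all, are low in both N libraries, and other members are highest in bIP.

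A set of 11 members was higher in bIP than in each of the 3 other populations, all 3 differences called, which is 17.5% of the tested members against 5.57% of all regions. Besides the start, they lay 168 and 149 kb downstream and 24.4, 163, 256, 258, 277, 317, 320 and 360 kb upstream. The clearest was the region 360 kb upstream, chr3:28258921-28259680, whose closest gene is the long non-coding RNA gene LINC01967. Its CPM was 0.901 and 0.798 in aRG, 0.500 and 0.646 in bRG, 8.83 and 9.56 in bIP, and 0.466 and 0.314 in N. Both bIP libraries were far above every other library, and the deposited peak lists had a peak there in bIP only. The region was 10.8-fold higher in bIP than in aRG (log2 fold change 3.43 ± 0.32 SE, edgeR adjusted p = 1.2e-05) and lower in N than in bIP by -4.52 ± 0.35 (adjusted p = 9.2e-06). N was also below aRG (-1.10 ± 0.39, adjusted p = 0.023), a call that ended without aRG library 1 (edgeR adjusted p = 0.1), aRG library 2 (0.053) or N library 2 (0.12).

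Further members of this set varied in level and in how open they were in radial glia. At 163 kb upstream, chr3:28062348-28063221 had 0.627 and 0.756 CPM in aRG, 0.500 and 0.987 CPM in bRG, 2.51 and 4.57 CPM in bIP, and 0.342 and 0.236 CPM in N. It rose in bIP against aRG by 2.35 ± 0.43 (edgeR adjusted p = 0.0008) and fell in N against bIP (-3.57 ± 0.47, adjusted p = 0.00012). At 277 kb upstream the CPM was 1.45 and 2.02 in aRG, 1.44 and 1.63 in bRG, 4.54 and 6.22 in bIP, and 1.99 and 0.864 in N, so aRG, bRG and N overlapped below bIP. The rise over aRG there was 1.63 ± 0.38 (edgeR adjusted p = 0.0037). The region 258 kb upstream was already open in radial glia, with 5.01 and 5.67 CPM in aRG, 3.47 and 6.63 CPM in bRG, 7.63 and 14.0 CPM in bIP, and 0.590 and 0.668 CPM in N. Its rise in bIP over aRG (1.02 ± 0.36, edgeR adjusted p = 0.033) ended without bIP library 2, at 0.49 (adjusted p = 0.34), and without aRG library 1 (0.15) or library 2 (0.094). At 256 and 320 kb upstream, the rises over aRG were 1.37 (edgeR adjusted p = 0.0083) and 1.13 (adjusted p = 0.024).

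The low region 317 kb upstream met the same calls, but several of them ended when 1 library was left out. It had 0.274 and 0.546 CPM in aRG, 0.177 and 0.340 CPM in bRG, 0.981 and 1.38 CPM in bIP, and 0.186 and 0.0393 CPM in N. The log2 fold change of bIP over aRG was 1.52 ± 0.52 (edgeR adjusted p = 0.029) and that of N over bIP -3.25 ± 0.61 (adjusted p = 0.001). The call against aRG ended without aRG library 1 (edgeR adjusted p = 0.21), bIP library 1 (0.054) or bIP library 2 (0.16), and with DESeq2 (0.13). N against aRG was -1.73 (edgeR adjusted p = 0.041), and without N library 1 it was -3.25 and without N library 2 -1.10, the call ending without N library 2 (0.19), aRG library 2 (0.27) or bIP library 1 (0.051).

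On the downstream side, 2 regions near a Y_RNA copy belonged to the set. The region 149 kb downstream, chr3:27744704-27745447, had 1.53 and 1.13 CPM in aRG, 1.44 and 1.84 CPM in bRG, 12 and 11.5 CPM in bIP, and 6.89 and 4.20 CPM in N. It was 8.79-fold higher in bIP than in aRG (log2 fold change 3.14 ± 0.34, edgeR adjusted p = 2.5e-05). N lay between bIP and aRG, lower than bIP by -1.08 ± 0.30 (edgeR adjusted p = 0.01), a call that ended without N library 2 (-0.77, adjusted p = 0.087). The region 168 kb downstream was fainter and had no peak in any deposited list. It had 0.274 and 0.336 CPM in aRG, 0.265 and 0.238 CPM in bRG, 0.872 and 1.57 CPM in bIP, and 0.373 and 0.354 CPM in N. Its rise over aRG was 1.99 ± 0.46 (edgeR adjusted p = 0.0035), and its fall in N (-1.73 ± 0.44, adjusted p = 0.006) ended without bIP library 2 (adjusted p = 0.056).

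Other members opened in bIP and kept that level, or rose further, in N. In all, 6 members were higher in bIP than in aRG with no call between N and bIP (9.52% of members, 10.1% of all regions), and 5 rose in both steps (7.94% of members, 8.57% of all regions). The region 154 kb downstream, chr3:27739843-27740803, was of the stable kind, with 2.08 and 1.76 CPM in aRG, 2.27 and 2.69 CPM in bRG, 13.3 and 14.2 CPM in bIP, and 13.5 and 14.4 CPM in N. Radial glia and the other populations did not overlap, and bIP and N nearly coincided. It rose in bIP against aRG by 2.84 ± 0.26 (edgeR adjusted p = 1e-05), and N against bIP was 0.02 ± 0.23 (adjusted p = 0.96). The regions 186 kb downstream (2.33 ± 0.31, adjusted p = 9.7e-05) and 55.6 kb upstream (2.99 ± 0.40, adjusted p = 9.1e-05) rose alike in bIP against aRG by edgeR.

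Of the members that rose in both steps, the strongest lay 56.9 kb upstream, chr3:27948048-27948956, nearest to the non-coding gene LINC01980. It had 0.509 and 0.714 CPM in aRG, 1.03 and 0.714 CPM in bRG, 6.61 and 3.34 CPM in bIP, and 19.7 and 22.7 CPM in N. Each step was larger than the spread between libraries. The log2 fold changes were 3.02 ± 0.40 for bIP over aRG (edgeR adjusted p = 9.1e-05), 2.09 ± 0.33 for N over bIP (adjusted p = 0.00033) and 5.11 ± 0.41 for N over aRG (adjusted p = 6e-07). This was the largest rise in N over aRG among the tested members. At 46.2 kb upstream, chr3:27937161-27938387 had 1.57 and 1.09 CPM in aRG, 1.71 and 0.987 CPM in bRG, 10.3 and 5.18 CPM in bIP, and 19 and 12.4 CPM in N. Its rise in bIP over aRG was 2.53 ± 0.41 (edgeR adjusted p = 0.00037). That in N over bIP was 1.02 ± 0.36 (adjusted p = 0.034), and was 0.46 without bIP library 2 (adjusted p = 0.37), 0.66 without N library 1 (0.22), 1.59 without bIP library 1 (0.011) and 0.93 with RLE scaling (adjusted p = 0.051). At 137 kb downstream, the CPM was 0.196 and 0.210 in aRG, 0.441 and 0.374 in bRG, 0.545 and 0.691 in bIP, and 1.99 and 2.2 in N. N stood above every other library there (N over bIP 1.75 ± 0.35, edgeR adjusted p = 0.0016; N over aRG 3.34 ± 0.42, adjusted p = 1.7e-05). The rise in bIP over aRG at this region, 1.58 ± 0.47 (edgeR adjusted p = 0.014), ended without aRG library 1 (0.083), aRG library 2 (0.064) or bIP library 2 (0.068), and with DESeq2 (0.076).

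A further group opened in neurons. Here 6 members were higher in N than in bIP with no call between bIP and aRG, 9.52% of members against 15.7% of all regions. The region 291 kb downstream, chr3:27598020-27598711, had 0.353 and 0.672 CPM in aRG, 0.383 and 0.374 CPM in bRG, 0.690 and 0.230 CPM in bIP, and 2.42 and 4.67 CPM in N. The N libraries stood above the 6 others, which overlapped each other (N over bIP 2.92 ± 0.50, edgeR adjusted p = 0.00058). At 266 kb downstream N had 1.43 and 3.65 CPM, and no other library exceeded 0.544 CPM (N over bIP 2.74 ± 0.52, edgeR adjusted p = 0.0011). No deposited list, that of N included, had a peak at this region. At 69.7 kb downstream N had 2.95 and 2.99 CPM, with at most 0.727 CPM elsewhere (N over bIP 2.45 ± 0.50, adjusted p = 0.0016). An open region 55.6 kb downstream gained less, with 29.5 and 32.8 CPM in N and between 18.4 and 20.7 CPM in the other libraries (N over bIP 0.69 ± 0.13, edgeR adjusted p = 0.0011).

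**Figure D3:**
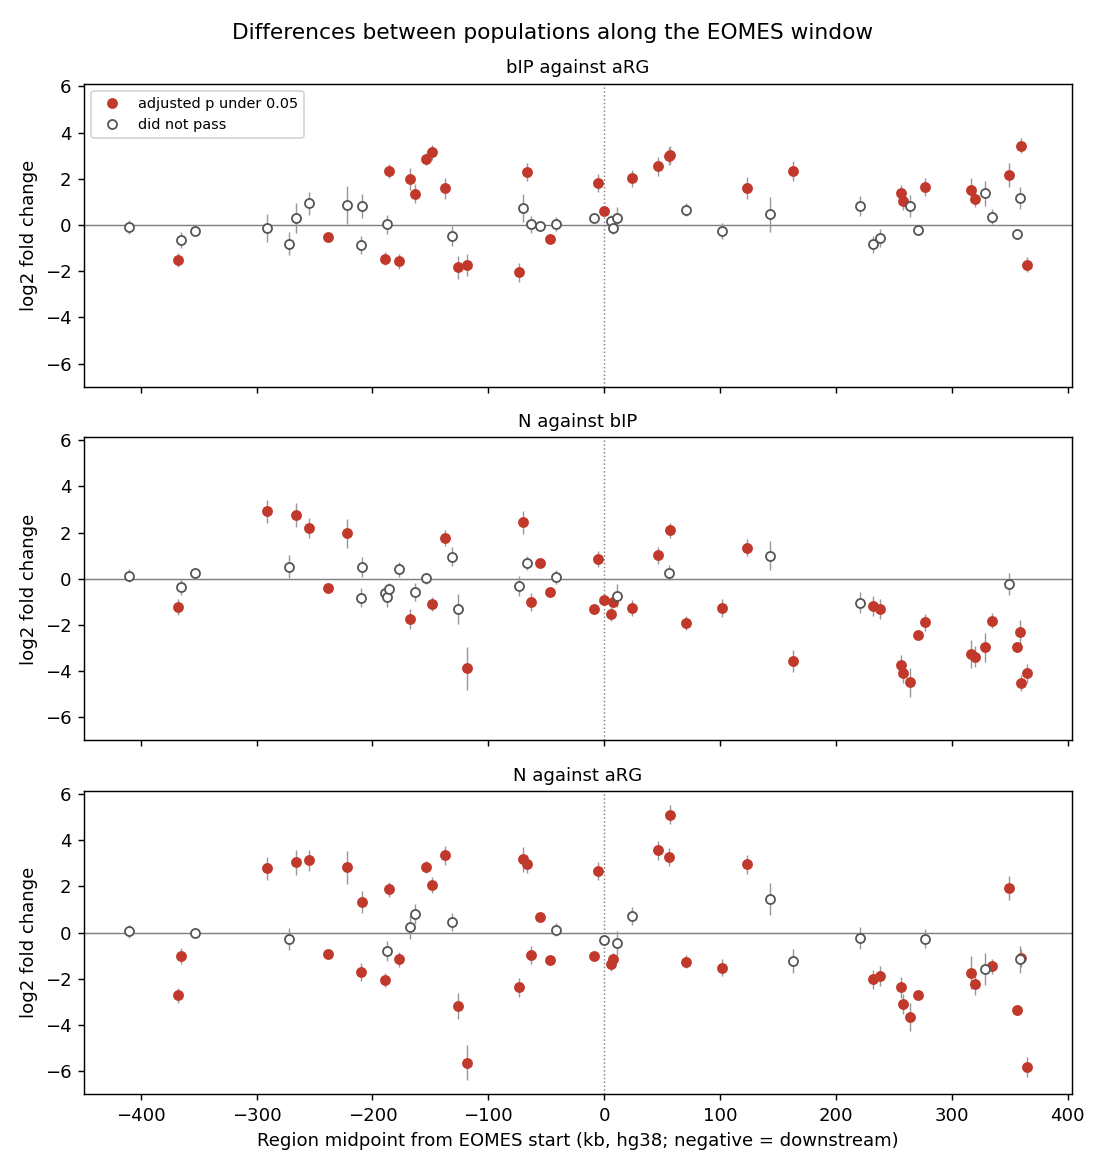
Log2 fold change of each tested member (vertical axes; bars are standard errors) by its distance from the EOMES start in kb (horizontal axis, negative downstream), in bIP against aRG, N against bIP and N against aRG, with filled points for calls. Far upstream, in a stretch marked off with these values known, 15 of 17 members are called lower in N than in bIP, beside 22.6% of all regions.

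Some regions that lost accessibility in neurons were already open in radial glia. The most open member of the locus, chr3:28169433-28170999, 271 kb upstream, had 74.9 and 74.4 CPM in aRG, 64.6 and 68.8 CPM in bRG, 58.0 and 68.4 CPM in bIP, and 12.6 and 10.5 CPM in N. The progenitor libraries overlapped or lay close together, and both N libraries were far below them. It fell in N by -2.45 ± 0.11 against bIP (edgeR adjusted p = 1.8e-06) and by -2.69 ± 0.12 against aRG (adjusted p = 4.1e-08). bIP against aRG was -0.24 ± 0.11 (edgeR adjusted p = 0.084), was called without bIP library 2 (-0.38, adjusted p = 0.027), and was 0.14 with loess offsets. The region 356 kb upstream, chr3:28253876-28255796, was alike, with 40.5 and 47.0 CPM in aRG, 29.5 and 39.8 CPM in bRG, 29.2 and 37.2 CPM in bIP, and 5.25 and 3.26 CPM in N (N over aRG -3.35 ± 0.22, edgeR adjusted p = 2e-07). The 4 members with the highest mean CPM, these 2, the EOMES start and the SLC4A7 start, held 39.7% of the summed CPM of the locus.

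Farther out, chr3:28264031-28265190, 365 kb upstream, began to close in bIP. It had 36.9 and 43.7 CPM in aRG, 30.5 and 42.0 CPM in bRG, 6.76 and 17.8 CPM in bIP, and 0.683 and 0.746 CPM in N. The 3 levels, radial glia, bIP and N, did not overlap. The log2 fold changes were -1.72 ± 0.32 for bIP over aRG (edgeR adjusted p = 0.00088), -4.10 ± 0.41 for N over bIP (adjusted p = 3.3e-05) and -5.81 ± 0.42 for N over aRG (adjusted p = 3.3e-07). The 2 bIP libraries differed here, and without bIP library 2 the log2 fold change over aRG was -2.60. This region and the bIP-high region 360 kb upstream are neighbours, and their values in bIP against aRG went opposite ways. At 264 kb upstream the CPM was 3.60 and 5.71 in aRG, 3.03 and 8.37 in bRG, 4.87 and 11.7 in bIP, and 0.373 and 0.354 in N. Library 2 was above library 1 in each progenitor population there, and the fall in N against bIP was -4.49 ± 0.61 (edgeR adjusted p = 0.00013).

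Position along the chromosome went with these patterns. Between 178 and 378 kb upstream of the EOMES start, 15 of 17 tested members were lower in N than in bIP and the other 2 did not pass the test. Of these 2, the region 349 kb upstream was higher in N than in aRG (1.93 ± 0.53, edgeR adjusted p = 0.0058). The stretch was not a planned group and was marked off with these values known, so its counts are a description and no test of position. In the remaining 46 tested members, 15 were lower and 11 higher in N than in bIP. Over all regions, 22.6% were called lower and 25.0% higher in this comparison. Summed over fixed 100 kb bins, the bin from 178 to 278 kb upstream averaged 86.9 ± 2.55 CPM in aRG and 85.0 ± 11.0 in bRG, with 100.0 ± 19.7 in bIP and 15.0 ± 2.74 in N (SD, n = 2 each). Its log2 fold change in N over bIP was -2.73 ± 0.18 (edgeR adjusted p = 0.00015), and bIP over aRG was 0.21 (adjusted p = 0.32). The bin from 278 to 378 kb upstream averaged 108 ± 7.99 CPM in aRG and 100.0 ± 21.2 in bRG, with 101 ± 10.9 in bIP and 17.5 ± 10.1 in N (N over bIP -2.53 ± 0.33, adjusted p = 0.00056). Both bins fell in neurons, with no call between bIP and aRG. The region 271 kb upstream, scaled with all regions, averaged 74.6 CPM in aRG and 11.5 CPM in N and so made up most of the nearer bin. The fall of that bin is thus not a result separate from the region. Of the 17 tested members in the 2 bins, 7 were higher and 1 lower in bIP than in aRG, beside 24.5% and 22.6% of all regions.

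The bin that holds the EOMES start, from 22.5 kb downstream to 77.5 kb upstream, was highest in bIP. It averaged 88.6 ± 2.66 CPM in aRG and 79.8 ± 6.51 in bRG, with 149 ± 7.79 in bIP and 99.0 ± 20.0 in N (SD, n = 2 each). It rose in bIP over aRG by 0.75 ± 0.13 (edgeR adjusted p = 0.0018) and fell in N against bIP (-0.59 ± 0.13, adjusted p = 0.0064). The bin 122 to 222 kb downstream also rose in bIP over aRG (1.04 ± 0.14, edgeR adjusted p = 0.00041), as did the sparse bin 77.5 to 178 kb upstream (1.31, adjusted p = 0.0028). The bins 22.5 to 122 kb (-0.45, adjusted p = 0.048) and 222 to 322 kb downstream (-0.35, adjusted p = 0.01) were lower in bIP than in aRG. Of 8 bins, 5 were called in bIP against aRG, 3 higher and 2 lower (background 23.4% and 25.7%, 49.1% in all), and 5, all lower, in N against bIP (background 22.7% lower, 47.4% in all). The bIP against aRG count was 3 without aRG library 1 or bIP library 1, and that of N against bIP was 3 without bIP library 2 or N library 2.

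**Figure D4:**
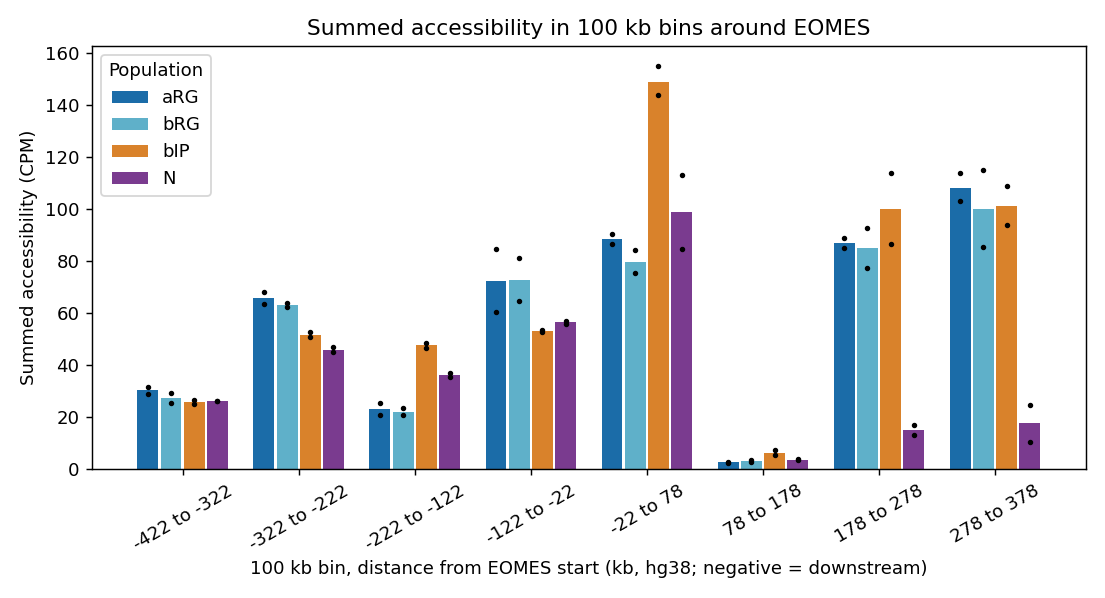
Summed CPM of the 8 bins of 100 kb across the window (horizontal axis, distance from the EOMES start in kb, negative downstream; vertical axis, linear from 0) in the 4 populations, with bars at the mean and 1 point per library. N is far below the other populations in the 2 bins farthest upstream, and bIP is highest in the bin of the EOMES start.

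Regions that were high in radial glia and lower in both bIP and N were fewer and lay mostly downstream. In total, 9 members were lower in bIP than in aRG, and 5 of these fell again in N (7.94% of members, 9.86% of all regions). The region 73.4 kb downstream, chr3:27818007-27819574, had 34.3 and 13.7 CPM in aRG, 29.7 and 13.0 CPM in bRG, 5.71 and 5.91 CPM in bIP, and 4.13 and 5.18 CPM in N. Radial glia did not overlap with bIP and N, and library 1 was well above library 2 in both kinds of radial glia. bIP against aRG was -2.05 ± 0.41 (edgeR adjusted p = 0.0015), and -1.24 without aRG library 1 (adjusted p = 0.028), while N against aRG was -2.37 ± 0.42 (adjusted p = 0.00026) and -1.57 without that library (0.0041).

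Among the faint regions of this kind, 2 were small in both size and counts. At 126 kb downstream the CPM was 1.37 and 1.47 in aRG, 1.12 and 0.851 in bRG, 0.182 and 0.614 in bIP, and 0.186 and 0.118 in N. bIP was lower than aRG by -1.84 ± 0.49 (edgeR adjusted p = 0.0082), which was -1.20 and not called without bIP library 1 (0.086) and -2.96 without bIP library 2 (0.0027). N against aRG was -3.16 ± 0.56 (edgeR adjusted p = 0.00025). At 118 kb downstream, N had 1 count in all, aRG had 53 and bIP 17. The scaled ratio of N to aRG was 0.0176 (95% exact interval for counting error only, 0.000436 to 0.102), and that of N to bIP 0.0528 (0.00126 to 0.337). bIP was lower than aRG there too (-1.74 ± 0.49, edgeR adjusted p = 0.011), a call that ended without aRG library 2 (0.058) or bIP library 1 (0.11).

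Starts of 2 neighbouring protein-coding genes lay in the window downstream and did not follow EOMES. The start of SLC4A7, a sodium bicarbonate cotransporter gene, 238 kb downstream at chr3:27649896-27651903, had 68.8 and 63.6 CPM in aRG, 60.0 and 57.6 CPM in bRG, 43.9 and 48.3 CPM in bIP, and 36.7 and 33.0 CPM in N. It stepped down without overlap from radial glia to bIP to N. bIP over aRG was -0.52 ± 0.10 (edgeR adjusted p = 0.00079), -0.12 and not called with loess offsets (0.26). N over bIP was -0.40 ± 0.10 (adjusted p = 0.0042), -0.25 with loess offsets, and N over aRG -0.93 ± 0.10 (adjusted p = 3.8e-06), -0.37 with loess offsets. The start of NEK10, a NIMA-related kinase gene, 353 kb downstream, had 22.2 and 23.7 CPM in aRG, 18.6 and 20.7 CPM in bRG, 19.8 and 18.7 CPM in bIP, and 22.5 and 22.9 CPM in N, with no call between bIP and aRG (-0.25 ± 0.13, edgeR adjusted p = 0.13) or N and aRG (-0.02 ± 0.13, 0.91). Near EOMES, the region 8.67 kb downstream over the start of the non-coding gene LINC02084 had 32.2 and 28.0 CPM in aRG, 24.5 and 25.1 CPM in bRG, 36.7 and 38.3 CPM in bIP, and 16.3 and 13.4 CPM in N. It fell in N against bIP (-1.33 ± 0.13, edgeR adjusted p = 3.2e-05), and its difference in bIP against aRG did not pass the test (0.32 ± 0.13, adjusted p = 0.062).

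A joint test of the 4 populations called 51 of 63 members, beside 73.5% of all regions, and left 12 uncalled. By mean level, 15 tested members were highest in aRG and 6 in bRG, with 24 in bIP and 18 in N. The bIP share was 38.1% of members and 18.2% of all regions, and the N share 28.6% and 40.6%. The members' mean level over the 8 libraries ran from 0.179 to 54.0 CPM with a median of 1.73 CPM, and 11 members in aRG and 11 in bRG, with 13 in bIP and 10 in N reached a mean of 10 CPM.

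The authors' consensus peak lists, 1 per population and so without replicates, were set beside the counts. A peak overlapped 29 of 67 members in aRG and 27 in bRG, with 33 in bIP and 25 in N, with at least 1 bp shared. These were 43.3%, 40.3%, 49.3% and 37.3% of the members, against 37.7%, 39.2%, 37.4% and 38.1% of all regions. Peaks in all 4 lists were found for 14 members, among them the EOMES start. These were 20.9% of the members and 17.7% of all regions. A further 7 had peaks in the lists of aRG, bRG and bIP but not N (10.4% against 6.51% of all regions), and 6 in the N list only (8.96% against 11.3%). In the bIP list only there were 6 members, 8.96% against 4.54% of all regions, at 24.4, 55.6, 163, 256, 320 and 360 kb upstream. The region 55.6 kb upstream had no peak in N, yet was as open there by counts. It had 3.89 and 3.26 CPM in bIP and 5.5 and 3.1 CPM in N (N over bIP 0.27, edgeR adjusted p = 0.51). No list had a peak in 19 members, 28.4% against 35.6% of all regions, and 15 of these were still tested.

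Likeness in pattern was measured as Pearson's r of log2 CPM, given as a description without a test. Over the 8 libraries, the members most like the EOMES start region lay 359, 277, 317 and 360 kb upstream, with r of 0.951, 0.944, 0.931 and 0.93. The regions 359 and 317 kb upstream averaged only 0.439 and 0.491 CPM and had no peak in any list, so their r rests on few counts. Among 14069 other gene loci, the 5 most like the EOMES locus over the 8 libraries were NEUROD4 (r = 0.991), CHID1 (0.979), CEBPE (0.976), RNF103 (0.976) and BHLHE23 (0.972), and 155 loci had r over 0.9. Over the 4 population means, the closest were IFNL1, AIFM3, HMCN1, NAIP and STK11, with r between 0.9992 and 0.9999, and these are other genes than the 5 above. With 4 means such values are easily reached, and over the 8 libraries STK11 had r of 0.476.

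NEUROD4, a proneural basic helix-loop-helix gene, was the locus most like EOMES over the 8 libraries. It was picked for that likeness, so its tests on the same libraries give no separate support. Its locus averaged 98.7 ± 1.35 CPM in aRG and 95.5 ± 20.3 in bRG, with 261 ± 22.3 in bIP and 76.7 ± 38.7 in N (SD, n = 2 each). It rose in bIP over aRG by 1.40 ± 0.28 (edgeR adjusted p = 0.0066) and fell in N against bIP (-1.76 ± 0.29, adjusted p = 0.0032). Of 19 measured loci of a list of 20 intermediate progenitor genes that leaves out EOMES, 13 rose in bIP over aRG and 6 did not pass the edgeR test. The background of loci called higher was 16.6% (31.3% either way), and the median log2 fold change 0.43, against -0.01 over all loci. In N against bIP, 12 fell, 1 rose and 6 did not pass (background 17.0% lower and 12.1% higher, 29.2% in all), with a median of -0.46 against -0.02. DLL3, a Notch ligand of the delta family, rose in bIP over aRG by 2.13 ± 0.15 (edgeR adjusted p = 9.4e-05) and fell in N against bIP (-1.21 ± 0.14, edgeR adjusted p = 0.001). SSTR2, a somatostatin receptor gene, rose in bIP over aRG by 2.87 ± 0.47 (edgeR adjusted p = 0.0025) and in N over bIP by 1.29 ± 0.35 (adjusted p = 0.026). The N over bIP call of SSTR2 ended without bIP library 1 (edgeR adjusted p = 0.091), bIP library 2 (0.11) or N library 1 (0.11). SRRM4, which encodes a neuronal splicing regulator, rose in bIP over aRG by 2.33 ± 0.13 (edgeR adjusted p = 5.5e-05) and had 0.03 in N over bIP.

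Genes that are placed upstream of EOMES were mostly lower or not called. Of 10 such loci, 2 of which (NEUROG2 and INSM1) are also in the intermediate progenitor list, 1 rose and 4 fell in bIP against aRG (background of loci 16.6% higher and 14.7% lower), and 6 fell in N against bIP (background 17.0% lower). Of the 4, PAX6 lost its call without aRG library 1 (edgeR adjusted p = 0.066) or bIP library 1 (0.059), and TFAP2C without aRG library 1 (0.066), aRG library 2 (0.15) or bIP library 1 (0.17). INSM1, a zinc-finger gene that promotes basal progenitors in mouse, was the one that rose (0.79 ± 0.10, edgeR adjusted p = 0.00091), and it fell in N (-0.66 ± 0.10, adjusted p = 0.0028). Summing regions at any distance gave INSM1 0.25 in bIP over aRG (edgeR adjusted p = 0.11), and -1.11 in N over bIP, while summing those within 10 kb gave -0.18 in N over bIP (0.27). GLI3, a mediator of Hedgehog signalling, fell in bIP against aRG (-0.70 ± 0.10, edgeR adjusted p = 0.0016), as did SMAD3, a TGF-beta signal transducer (-0.54 ± 0.08, adjusted p = 0.0014). PAX6, which binds and activates Eomes in mouse cortex, averaged 122 ± 16.3 CPM in aRG and 129 ± 4.79 in bRG, with 86.7 ± 5.57 in bIP and 51.2 ± 3.10 in N (SD, n = 2 each), lower in N than in bIP by -0.76 ± 0.11 (edgeR adjusted p = 0.0019), or by -1.62 when regions at any distance were summed. TFAP2C fell in N against bIP too (-1.27 ± 0.14, adjusted p = 0.0008).

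Within the T-box family, 15 of 16 loci were measured, EOMES included. In bIP over aRG 3 rose, beside 16.6% of all loci, and 12 did not pass the edgeR test. In N against bIP 5 fell and 2 rose, beside 17.0% and 12.1% of all loci, and 8 did not pass. TBR1, the family member of early-born deep-layer neurons, had its highest level in bIP as EOMES did, at 76.3 ± 8.48 CPM in aRG and 68.1 ± 0.13 in bRG, with 190 ± 18.6 in bIP and 127 ± 7.59 in N (SD, n = 2 each). Unlike EOMES, TBR1 was higher in N than in aRG (0.74 ± 0.10, edgeR adjusted p = 0.00046). TBX5, which is known from heart and limb, was low, at 0.649 ± 0.295 CPM in aRG and 1.13 ± 0.303 in bRG, with 1.87 ± 0.406 in bIP and 7.30 ± 0.06 in N, and rose in bIP over aRG (1.53 ± 0.43, adjusted p = 0.028) and in N over bIP (1.96 ± 0.32, adjusted p = 0.0033) by edgeR. The TBX5 call in bIP over aRG ended without aRG library 1 (edgeR adjusted p = 0.18) or bIP library 1 (0.16), and with DESeq2 (0.076). TBX19 fell in N against bIP (-0.87 ± 0.27, edgeR adjusted p = 0.043), and was -0.48 without bIP library 1 (adjusted p = 0.25). The call also ended without aRG library 1 (0.066) or 2 (0.065), bRG library 1 (0.058) or 2 (0.058), and N library 2 (0.2). TBXT rose in N over bIP (0.72 ± 0.20, edgeR adjusted p = 0.028), but not when regions within 10 kb were summed (0.47, adjusted p = 0.17). That call ended too when any 1 library other than N library 1 was left out, with edgeR adjusted p from 0.051 to 0.13.

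Of 6 protein-coding genes that neighbour EOMES on the chromosome, 5 had a measured locus. In bIP against aRG, SLC4A7 fell (-0.30 ± 0.08, edgeR adjusted p = 0.022) and the other 4 did not pass, beside 14.7% of all loci called lower. The SLC4A7 call ended without aRG library 1 or bIP library 1. Its locus held 1 region, the SLC4A7 start described above, so these are the same counts and not a second result. Scaled with all regions, bIP over aRG was -0.52 for that start. RBMS3 in bIP against aRG was -0.64 ± 0.23 (edgeR adjusted p = 0.072), and was called without bIP library 1 (-0.97, adjusted p = 0.039), with loess offsets (-0.70, 0.046) and when regions at any distance were summed (-0.68, 0.019). In N against bIP, 3 fell, beside 17.0% of all loci, among them SLC4A7 (-0.45 ± 0.08, edgeR adjusted p = 0.0046) and RBMS3, an RNA-binding protein gene (-1.19 ± 0.25, adjusted p = 0.0095). That RBMS3 call ended without bIP library 1 (-0.86, edgeR adjusted p = 0.053). RBMS3 had the opposite sign in N against bIP, 0.74 (edgeR adjusted p = 0.015), when regions at any distance were summed.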

How the data were processed

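Bulk ATAC-seq gave 8 libraries, 2 for each of 4 populations. The authors deposited a table of whole-number counts per region, unscaled, with each region's closest gene and distance (per the file headers). For each population the authors also deposited a list of consensus peaks, whose −log10 q-value was used for 1 alternative and whose fold enrichment (a ratio), −log10 p-value and score were not used. The submitters' processing notes name bcl2fastq 2.20.0, MACS2 and the builds panTro6 and hg38. Not given in the sources used here are the aligner, the matching of regions between species and how libraries were combined into peak lists. Whether a region is exonic or intronic was not analysed here.

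Rows without a chimpanzee identifier (6725, with 0 counts) and 7 repeats were removed, leaving 211348 regions. With 0-based starts 54881 regions began where a peak did, and with 1-based starts 11 did, so coordinates were shifted to 1-based. The EOMES start was taken from the closest-gene distances, which in 4 of 4 regions pointed to 1 hg38 position.

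All 198227 regions that passed filterByExpr were fitted together with edgeR 4.0.16 (TMM, robust quasi-likelihood F-test, population as the only term), and p-values were adjusted by Benjamini-Hochberg over all of them. Gene loci (14070, within 50 kb) and 100 kb bins (25827) were fitted likewise. A call is an adjusted p under 0.05, and "rose" and "fell" are used of calls. Errors of log2 fold changes are standard errors derived from the F statistic, in log2 units, and each log2 fold change is of the first population named over the second. The scripts were tested on simulated data. DESeq2 1.42.0 and, with edgeR, loess offsets from cyclic loess in limma 3.58.1 served as alternatives.

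The members and gene lists were chosen with earlier results of these data known. Every member was counted. Those described in full are regions over the EOMES start, the 4 highest, the 3 largest called changes each way in bIP against aRG, N against bIP and N against aRG, up to 5 regions highest in bIP, and the 3 smallest joint p. Other members were named after their values were seen, to complete a group. From each gene list the 2 largest called changes each way are named. Total counts per library set the precision, and intervals cover counting error only.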

Additional observations from a re-analysis of the deposited data

How the results depend on the processing

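Of 274 recomputed values of the counts and of the EOMES locus, 251 kept their direction and side of the threshold or stayed within 1.5 times the count. A window of 400 kb, which holds 38 members, gave 21 calls in bIP against bRG, 21 in N against bIP, 27 in N against aRG, 31 in N against bRG and 30 in the joint test, since fewer regions were counted. Bins called in bIP against bRG were 5, and 3 under RLE scaling, under loess offsets and under DESeq2, where the cause was not tested. When 1 library was left out, the population with 1 library was assumed to vary like the others. Calls of members then ran from 21 to 36 in bIP against bRG. Bins called ran from 3 to 4 in bIP against aRG, from 2 to 4 in bIP against bRG and from 3 to 5 in N against bIP. The EOMES locus ran from 0.70 to 0.74 in bIP against aRG, from -0.62 to -0.07 in N against aRG and from -0.46 to 0.09 in N against bRG, whose sign turned without N library 2.

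Single values were recomputed for the regions picked by the naming rule and for the named list genes. Other named members, such as those 256 and 320 kb upstream and 154 kb downstream, entered only the counts of calls. How their single calls held under the alternatives is not given. Among the 1302 recomputed values, 1209 kept direction and side of the threshold, 58 lost and 24 gained a call, and 11 turned sign. Those that turned with loess offsets were N against aRG 168 kb downstream (-0.67) and at the EOMES start (0.24), N against bIP 73.4 kb downstream (0.03) and bIP against aRG 271 kb upstream (0.14). Those that turned without 1 library were bIP against aRG 291 kb downstream (range -1.13 to 0.41, with 0.39 without aRG library 2) and 266 kb downstream (-0.07 to 0.81), N against aRG 277 kb upstream (-1.02 to 0.20) and N against bIP at SRRM4 (-0.10 to 0.19). RBMS3 in N against bIP turned when regions at any distance were summed (0.74). Summing list genes by the other distances was chosen after seeing the data. RLE scaling moved the median log2 fold change of all regions to 0.03 in N against aRG, against 0.13 with TMM, and to 0.05, against 0.17, in N against bRG, and no called member changed sign.

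Libraries with the same number share only that number in the labels. Their deviations correlated between populations with r from 0.116 to 0.313 over 198227 regions. With the replicate block, 38 members were called in bIP against aRG, 36 in bIP against bRG, 43 in N against bIP, 49 in N against aRG and 48 in N against bRG, including every call made without it, and the EOMES locus had 0.72 in bIP against aRG (edgeR adjusted p = 0.0049). The block also called N against aRG at the EOMES start (-0.32, edgeR adjusted p = 0.041) and RBMS3 in bIP against aRG (-0.65, 0.028). Regions under 1 CPM rest on few counts per library, which limits what could be detected there. The consensus peak lists hold no replicates.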
